A study of Mus musculus with 12 samples.

Results

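Neurofilaments, microtubule proteins and growth cone proteins build the axon of a young neuron, and 10 genes that encode them were followed here in sorted spiral ganglion neurons of the mouse embryo: Nefl, Nefm, Nefh, Ina, Gap43, Stmn2, Tubb3, Map2, Mapt and Dcx. They were chosen by name, as known genes of the neuronal cytoskeleton and of axon growth, with earlier results of these data known, and all 10 were found among the 25674 genes of the count table. All 10 also passed the filter on low counts and are among the 14813 genes tested. Spiral ganglion neurons carry sound information from the hair cells of the cochlea to the brainstem.

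Each sample held 100 cells sorted for the red fluorescent reporter tdTomato at embryonic stage E14.5, from both inner ears of 1 embryo of either sex on a mixed C57BL/6/sv129 background. Control embryos (Neurod1Cre;Rosa26tdTOM, n = 6) carried the Cre recombinase and the reporter. Isl1CKO embryos (Neurod1Cre;Isl1loxP/loxP;Rosa26tdTOM, n = 6) carried both of these and, in addition, Isl1 alleles flanked by loxP sites. Cre came in both groups from a bacterial artificial chromosome transgene of Neurod1, so deletion is limited to cells in which that transgene was active, and the reporter marks any cell with a history of Cre. ISL1 is a LIM homeodomain transcription factor of sensory and motor neurons. The labels number the samples as technical replicates while the design text calls them biological, and since the protocol describes 1 embryo per sample they were treated as separate embryos.

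In young axons, microtubules assembled from tubulin are the tracks of growth and transport, and proteins that bind them, such as tau, MAP2 and doublecortin, set their spacing and stability. Neurofilaments are intermediate filaments built from light, medium and heavy subunits and alpha-internexin. They fill the axon as it matures and set its calibre, whereas doublecortin, GAP-43 and stathmin-2 are known for migrating neurons and growing axon tips. Spiral ganglion neurons at this stage have left the cell cycle and are extending processes to the cochlear epithelium and the brainstem.

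Total counts ran from 11895603 to 13857480 per library. Isl1 itself had 1050 to 1589 CPM (counts scaled to a common library total, corrected by TMM factors of 0.978 to 1.01) in the libraries labelled Isl1CKO, against 1171 to 1777 CPM in the control group, a log2 fold change (libraries labelled Isl1CKO over controls, as throughout) of -0.15 that edgeR did not call (adjusted p = 0.460). Counts over the whole gene include exons that the deletion may leave in place, so this level checks nothing, and each direction below rests on the labels. Libraries Isl1CKO 2, 3 and 5 held both Xist (62.9 to 132 CPM) and Y-linked transcripts (mean of 4 genes 35.7 to 87.3 CPM), which no other library did. Whether each of these 3 samples came from 1 embryo, as the protocol describes, was not tested, nor was the part of this in the results. Values without these 3 libraries are given beside each of the 10 genes and each named gene of the related lists whose call they change. The 11 pan-neuronal genes in the table (of 12 listed) summed to 4753 to 5915 CPM in the libraries labelled Isl1CKO, against 5111 to 5890 CPM in the control group. Single genes of this list changed in both directions. Elavl4 and Uchl1 were called as lower (log2 change -0.49 and -0.58) and Rbfox3 and Celf4 as higher (0.54 and 1.27). This list is also the one behind the pan-neuronal scaling below. Among 10 spiral ganglion neuron markers, all were detected in every library. Of these, edgeR called Gata3, Ntrk2 and Ntrk3 as lower (log2 change -2.71, -2.81 and -1.40) and Neurod1 and Slc17a6 as higher (0.88 and 0.87), and 5 were not called. Of the other cell types, 10 of 10 macrophage markers (summed 1.24 to 771 against 1.85 to 372 CPM), 10 of 10 Schwann and satellite glia markers (35.1 to 270 against 32 to 189 CPM) and 8 of 8 cycling cell markers (89.0 to 416 against 83.6 to 219 CPM) were in the table and none passed the test. The macrophage marker Lyz2 had 0 counts in 6 of the 12 libraries. Of 10 mesenchyme markers, all in the table and 4 tested, Tbx18 and Col3a1 passed as higher (all summed 72.0 to 122 against 38.6 to 84.5 CPM). Tbx18 alone averaged 39.5 CPM in the libraries labelled Isl1CKO and 1.09 CPM in the controls. Pou3f4 went the other way, with 27.4 and 52.9 CPM, and was not called (log2 change -0.95, edgeR adjusted p = 0.143). Of 8 hair cell markers Atoh1 was not in the table and 4 were tested. Pou4f3 had 0 counts in 9 libraries and Pcp4 passed as lower. Their sum (291 to 580 against 250 to 509 CPM) was mostly Myo6, which averaged 410 CPM in the libraries labelled Isl1CKO and 407 CPM in the controls. The part of these cells in the results below was not tested.

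Of the 10 genes, 4 were called, that is, had an edgeR quasi-likelihood p under 0.05 after Benjamini-Hochberg adjustment over every gene tested. Nefl, Nefm and Mapt fell in the libraries labelled Isl1CKO and Stmn2 rose. Among all genes tested 10.2% were called, 5.19% as lower and 5.01% as higher. Without Isl1CKO 2, 3 and 5, Nefl, Nefm, Stmn2 and Tubb3 were called, beside 767 of all 16222 genes tested in that setting. The groups did not overlap for Nefl, Nefm and Stmn2, as for 6.78% of all genes tested (3.65% with lower and 3.13% with higher libraries labelled Isl1CKO). The median log2 fold change of the 10 genes was -0.13, against 0.0045 for all genes tested, and 5 of the values lay below 0 and 5 above. Loss of RNA per cell and a smaller share of the cells that express a gene cannot be told apart in such pooled cells.

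**Figure D1:**
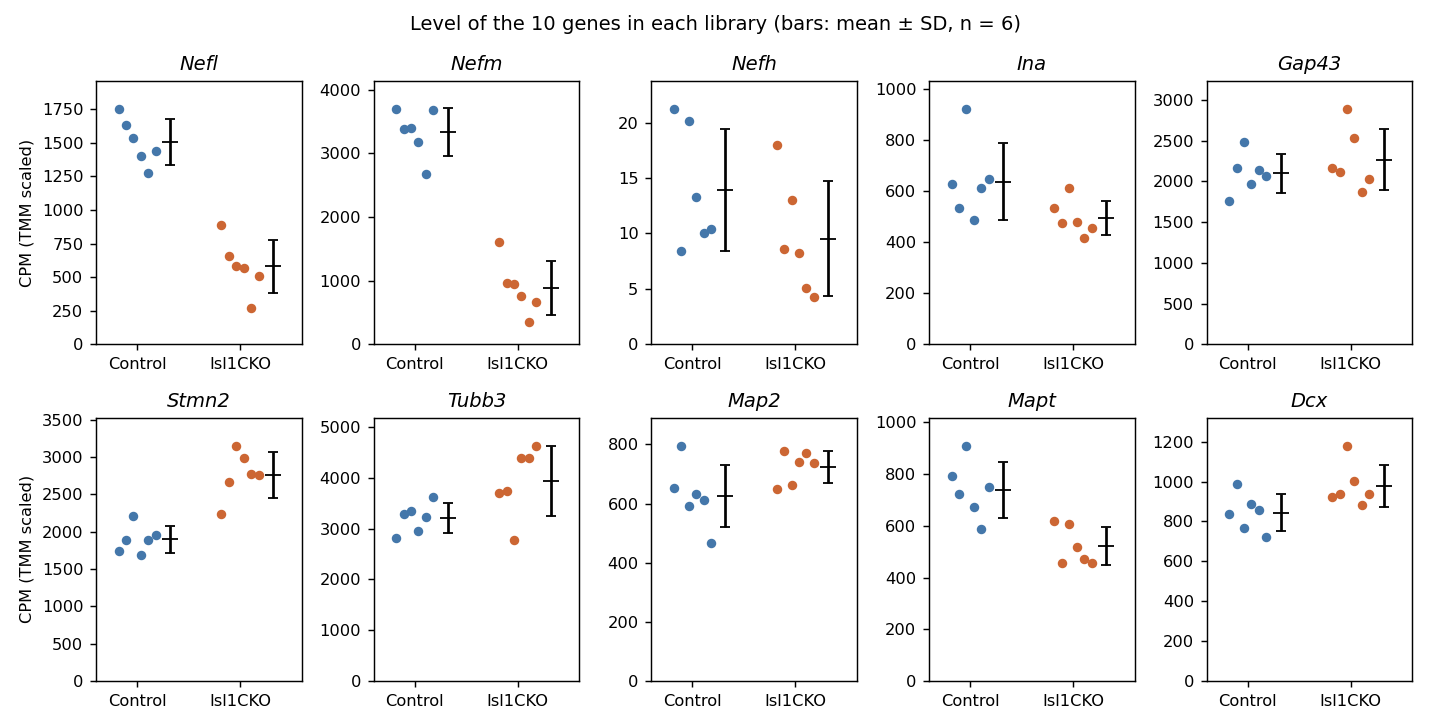
Level of each of the 10 genes in CPM after library scaling (vertical axes, each from 0) in the 6 control libraries (blue) and the 6 libraries labelled Isl1CKO (orange); black marks are the mean ± SD. The orange points of Nefl (273 to 888) and Nefm (345 to 1611) lie below all blue points, and those of Stmn2 (2235 to 3148) lie above them.

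The neurofilament genes are described first. Nefl (ENSMUSG00000022055, GRCm38 chromosome 14, 68083863 to 68089095, plus strand) encodes the light subunit, on which the other subunits assemble. Nefm (ENSMUSG00000022054, chromosome 14, 68082590 to 68124846, minus strand) encodes the medium subunit. In the GENCODE M21 annotation 1 of the 2 transcripts of Nefm ends beyond Nefl, so that the pair overlap on opposite strands, and 1108 exon bases are shared, 32.8% of those of Nefl and 19.2% of those of Nefm. The use of strand in counting is not given in the sources used here, so reads from these shared bases cannot be assigned with certainty.

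The subunits are also alike in coding sequence, so runs of identical bases were sought between relatives in GENCODE M21 transcripts on GRCm38. The longest identical run between Nefl and Nefm was 17 bases. Over 28 pairs of a described gene and a relative (intermediate filaments, beta-tubulins, stathmins, MAP2 with tau and MAP4, doublecortins) the longest run was 47 bases, between Tubb3 and Tubb6, and 0 pairs shared a run as long as the 75 sequencing cycles.

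Nefl had a lowest, median and highest level of 1278, 1487 and 1750 CPM in the controls and of 273, 577 and 888 CPM in the libraries labelled Isl1CKO. All 6 of the latter lay below the lowest control. The mean went from 1505 ± 170 to 580 ± 200 CPM (SD, n = 6), or 38.5% of the control mean, which is a log2 change of -1.38 (SE 0.20; edgeR adjusted p = 3.17e-04).

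Nefm was the more changed of the pair. Its lowest, median and highest levels were 2681, 3391 and 3693 CPM in the controls and 345, 852 and 1611 CPM in the libraries labelled Isl1CKO. The mean went from 3337 ± 377 to 881 ± 424 CPM (SD, n = 6), or 26.4% of the control mean, a log2 change of -1.92 (SE 0.26; edgeR adjusted p = 2.63e-04). Among all genes tested 96.4% had a smaller absolute change than Nefm and 93.1% a smaller one than Nefl. Both calls held in each of 21 alternative analyses, with log2 fold changes from -1.54 to -1.20 for Nefl and from -2.18 to -1.73 for Nefm.

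The size of the fall differed between libraries. Isl1CKO 1 kept the most of both RNAs, with 888 CPM of Nefl and 1611 CPM of Nefm, and Isl1CKO 5 the least, with 273 and 345 CPM. Isl1CKO 5 also held both Xist and Y-linked transcripts, as given above, and the part of this in its values was not tested. The coefficient of variation of Nefm was 48.1% in the libraries labelled Isl1CKO, against 11.3% in the control group, and that of Nefl 34.5% and 11.3%. Gata3, a transcription factor gene of these neurons chosen here after its values were seen, was likewise highest of its group in Isl1CKO 1 (528 CPM) and lowest in Isl1CKO 5 (18.2 CPM).

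Nefh (ENSMUSG00000020396, chromosome 11, 4938754 to 4948064), which encodes the heavy subunit of mature axons, was scarce in both groups. It ranged from 8.43 to 21.2 CPM in the controls (median 11.8) and from 4.27 to 18 CPM in the libraries labelled Isl1CKO (median 8.41), and the groups overlapped. Its log2 change of -0.54 (SE 0.36) was not past the threshold (edgeR adjusted p = 0.404). Every library held at least 56 counts of Nefh.

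Ina (ENSMUSG00000034336, chromosome 19, 47014698 to 47025327) encodes alpha-internexin, a neurofilament partner that is made early in neurons. It ranged from 485 to 919 CPM in the controls (median 618) and from 415 to 609 CPM in the libraries labelled Isl1CKO (median 475). The means of 636 ± 151 and 494 ± 67.7 CPM (SD, n = 6) gave a log2 change of -0.37 (SE 0.14), which was not past the threshold (edgeR adjusted p = 0.108). In the annotation 456 exon bases of Ina, 14.1% of them, overlap Nt5c2 on the opposite strand.

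Ratios of 2 genes within a library do not depend on library scaling, and 6 were compared with 2-sided exact permutation tests, in which 6 against 6 libraries cannot go below p = 0.00216. The log2 ratio of Nefm to Nefl counts fell from 1.15 ± 0.12 to 0.54 ± 0.21 (SD, n = 6), a difference of -0.61 with all 6 libraries labelled Isl1CKO below all controls (exact permutation p = 0.00216, adjusted p = 0.00433 over the 6 ratios). The ratio of Ina to Nefl rose from -1.26 ± 0.34 to -0.16 ± 0.46 on the log2 scale (SD, n = 6), a difference of 1.11 without overlap, although both ranges reach -0.74 once rounded (exact permutation p = 0.00216, adjusted p = 0.00433). That of Nefh to Nefl went from -6.84 ± 0.50 to -6.01 ± 0.52 (SD, n = 6), a difference of 0.83 with overlapping groups (exact permutation p = 0.0195, adjusted p = 0.0234). The adjusted exact permutation p of Nefh to Nefl was 0.0545, 0.0571 and 0.0545 without Isl1CKO 1, 3 and 5, with differences of 0.75, 0.72 and 0.77. Without Isl1CKO 2, 3 and 5 together it was 0.171, with a difference of 0.63.

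Levels were also expressed per kilobase of exon, over all annotated transcripts, for an approximate comparison between genes. For Nefm this length was 5782 bases, while its 2 transcripts hold 3334 and 3680, so either alone would give Nefm a higher level and share. On this measure Nefm made up 47.2% ± 2.42 of the summed level of Nefl, Nefm, Nefh and Ina in the controls and 30.4% ± 5.66 in the libraries labelled Isl1CKO (SD, n = 6). Ina made up 16.1% ± 3.17 and 33.7% ± 8.15. The share of Nefl was 36.5% ± 2.18 and 35.4% ± 3.34, and that of Nefh was 0.281% ± 0.0907 and 0.478% ± 0.137. Nefm ranged from 44.2% to 50.4% in the controls and from 22.1% to 39.3% in the other group, and Ina from 13.3% to 21.3% and from 23.1% to 47.5%, so that neither overlapped.

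**Figure D2:**
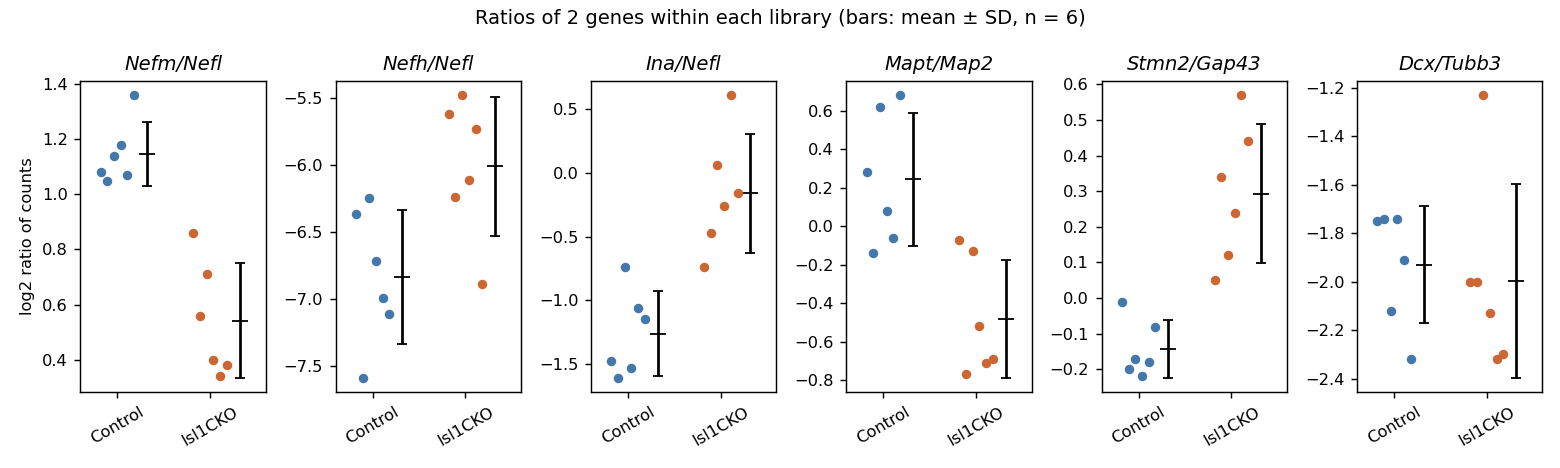
Log2 ratio of the counts of 2 genes within each library (vertical axes, each with its own range) for 6 pairs, in control libraries (blue) and libraries labelled Isl1CKO (orange); black marks are the mean ± SD. Nefm/Nefl runs from 1.05 to 1.36 in controls and from 0.34 to 0.86 in the other group, while Dcx/Tubb3 overlaps.

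The genes around Nefl and Nefm were examined because the pair lie side by side. Of 16 annotated genes within 500 kb of Nefl, 5 were tested, including the pair themselves. Cdca2, Kctd9 and the noncoding Gm31107 had log2 fold changes of 0.78, -0.56 and -0.54 in edgeR, none past the threshold (adjusted p of 0.520, 0.261 and 0.563). They were at 3.75 to 13.7 CPM on average in the controls, far below Nefl and Nefm.

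Growth cone genes come next, and 1 of these 2 rose. Stmn2 (ENSMUSG00000027500, chromosome 3, 8509360 to 8561606) encodes stathmin-2, also called SCG10, a protein of growth cones that binds tubulin and promotes microtubule turnover. Its lowest, median and highest levels were 1692, 1890 and 2211 CPM in the controls and 2235, 2759 and 3148 CPM in the libraries labelled Isl1CKO, so that the groups did not overlap. The mean rose from 1896 ± 183 to 2760 ± 311 CPM (SD, n = 6), a log2 change of 0.54 (SE 0.08; edgeR adjusted p = 6.08e-04). Stmn2 was called in each of the 21 alternatives, with log2 fold changes from 0.48 to 0.62.

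Of the other stathmin genes Stmn1 shared the longest run with Stmn2, and this run is printed in capitals because no other called gene of the 10 shared a longer one with a relative:
Stmn2: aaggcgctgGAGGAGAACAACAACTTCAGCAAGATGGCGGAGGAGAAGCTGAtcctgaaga
Stmn1: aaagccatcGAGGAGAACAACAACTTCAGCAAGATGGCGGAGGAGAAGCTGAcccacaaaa
The run of 43 bases lies in coding sequence of GENCODE M21 transcripts on GRCm38, within chr3:8554858-8554918, plus strand, for Stmn2 and chr4:134472870-134472930, plus strand, for Stmn1. It is shorter than the 75 sequencing cycles. Stmn1 itself averaged 2341 ± 232 CPM in the controls and 2675 ± 148 CPM in the libraries labelled Isl1CKO (SD, n = 6), with a log2 change of 0.19 that was not past the threshold (edgeR adjusted p = 0.0929). It passed with scaling on the pan-neuronal genes (0.28, edgeR adjusted p = 0.0459), without control 3 (0.23, edgeR adjusted p = 0.0326) and in limma-voom (0.22, adjusted p = 0.0163).

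Gap43 (ENSMUSG00000047261, chromosome 16, 42248442 to 42340651), whose product lies under the membrane of growth cones, ranged from 1758 to 2486 CPM in the controls (median 2106) and from 1865 to 2887 CPM in the libraries labelled Isl1CKO (median 2138). The groups overlapped and the log2 change of 0.11 (SE 0.10) was not past the threshold (edgeR adjusted p = 0.579). The log2 ratio of Stmn2 to Gap43 was -0.14 ± 0.08 in the controls and 0.29 ± 0.19 in the libraries labelled Isl1CKO (SD, n = 6). The difference was 0.44, and every library labelled Isl1CKO lay above every control (exact permutation p = 0.00216, adjusted p = 0.00433), so the 2 growth cone genes changed unequally.

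Dcx (ENSMUSG00000031285, chromosome X, 143855842 to 143933311) encodes doublecortin, a microtubule protein of migrating and newly formed neurons. It ranged from 724 to 988 CPM in the controls (median 847) and from 882 to 1179 CPM in the libraries labelled Isl1CKO (median 938). Its log2 change was 0.21 (SE 0.09), not past the threshold (edgeR adjusted p = 0.148). When libraries were scaled on the pan-neuronal genes the value was 0.29, past the threshold (edgeR adjusted p = 0.0389).

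Among microtubule genes, Mapt (ENSMUSG00000018411, chromosome 11, 104231390 to 104332090), which encodes tau, a protein of axonal microtubules, fell. Its lowest, median and highest levels were 587, 736 and 909 CPM in the controls and 456, 494 and 617 CPM in the libraries labelled Isl1CKO, and 4 of the latter lay below all controls. The means were 739 ± 109 CPM in controls and 521 ± 73.9 CPM in the other group (SD, n = 6), a log2 change of -0.50 (SE 0.11; edgeR adjusted p = 0.00759). Without Isl1CKO 2, 3 and 5 the log2 fold change was -0.48 and the call was lost (edgeR adjusted p = 0.0749).

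Map2 (ENSMUSG00000015222, chromosome 1, 66175273 to 66442583) encodes the related protein of dendrites and cell bodies. It ranged from 467 to 795 CPM in the controls (median 623) and from 648 to 778 CPM in the libraries labelled Isl1CKO (median 738), and the groups overlapped. Its log2 change of 0.21 (SE 0.10) was not past the threshold (edgeR adjusted p = 0.231). The log2 ratio of Mapt to Map2 fell from 0.25 ± 0.35 to -0.48 ± 0.31 (SD, n = 6), a difference of -0.73 (exact permutation p = 0.00649, adjusted p = 0.00974). All 6 libraries labelled Isl1CKO lay below the control mean, but the groups overlapped, with the former reaching -0.07 and the lowest control at -0.14. Without Isl1CKO 2, 3 and 5 the difference was -0.67 (exact permutation test, adjusted p = 0.0536).

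Tubb3 (ENSMUSG00000062380, chromosome 8, 123411424 to 123422015) encodes the beta-tubulin that marks neurons. It ranged from 2809 to 3622 CPM in the controls (median 3258) and from 2769 to 4630 CPM in the libraries labelled Isl1CKO (median 4069). There 5 libraries lay above all controls, while Isl1CKO 3 lay below them all. The log2 change of 0.30 (SE 0.11) was not past the threshold (edgeR adjusted p = 0.101). Without Isl1CKO 3 it was 0.38 (edgeR adjusted p = 0.0062), without Isl1CKO 2, 3 and 5 it was 0.40 (edgeR adjusted p = 0.0328), and limma-voom gave 0.34 (adjusted p = 0.0291). The log2 ratio of Dcx to Tubb3 was -1.93 ± 0.25 in the controls and -2.0 ± 0.40 in the libraries labelled Isl1CKO (SD, n = 6), and its difference of -0.07 was smaller than either SD (exact permutation p = 0.751, also after adjustment).

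**Figure D3:**
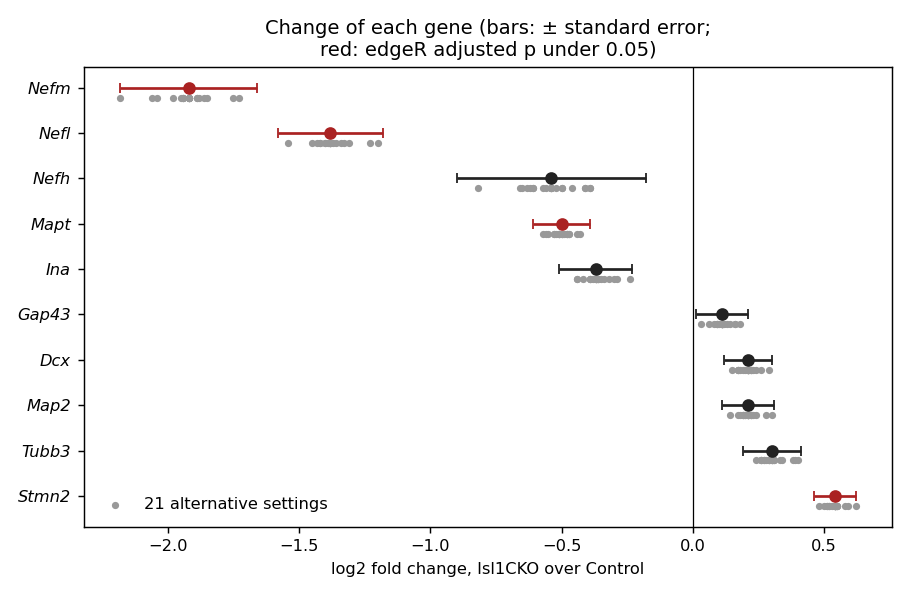
Log2 fold change of each gene, libraries labelled Isl1CKO over controls (horizontal axis), with its standard error as a bar; red marks an edgeR adjusted p under 0.05 and grey points the 21 alternative analyses. Nefm (-1.92) and Nefl (-1.38) lie farthest to the left and Stmn2 (0.54) farthest to the right, and no grey point crosses 0.

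The order of the genes by level was read from CPM per kilobase. Per kilobase of exon, Tubb3 led in the controls with 1718 ± 155 CPM per kb, followed by Gap43 with 1378 ± 158 (SD, n = 6), and their ranges overlapped. Then came Nefm (577 ± 65.1 CPM per kb), Nefl (445 ± 50.2) and Stmn2 (339 ± 32.7), each overlapping its neighbour, and below them Ina (196 ± 46.6). Mapt (98.1, from 77.9 to 121 CPM per kb) and Dcx (66.7 ± 7.35) overlapped, and Map2 (38.0 ± 6.43) and Nefh (3.48 ± 1.37) each stood apart. In the libraries labelled Isl1CKO the third place was taken by Stmn2 (493 ± 55.6 CPM per kb), apart from its neighbours Gap43 (1488 ± 247) and Nefl (171 ± 59.2). Nefl, Ina (152 ± 20.9 CPM per kb) and Nefm (152 ± 73.3) overlapped there. Exon length was taken over all annotated transcripts, without correction for bases shared with other genes, so these levels are approximate.

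Within groups, the level of Nefl and Nefm varied together over the 12 libraries. With log2 CPM centred on the group mean, Pearson's r was 0.97 (permutation p = 9.0e-05, adjusted p = 0.00405 over 45 pairs of the 10 genes) and Spearman's rho was 0.88 (permutation p = 2.80e-04, adjusted p = 0.0126). Leaving out the 2 libraries with the most extreme Nefl gave r = 0.78. Taken alone, the controls gave 0.76, and the other group 0.98. The pair share exon bases on opposite strands, as given above, and their libraries share the same cells. Across the 45 pairs r ran from -0.65 (Nefh with Tubb3) to 0.97 with a median of 0.13, and no pair other than Nefl with Nefm had an adjusted permutation p under 0.05. The genes whose centred level was most like the mean of the 10 were Gm10699, Minos1, Mir3091, Pgm1 and 1110032F04Rik, with r of 0.95, 0.94, 0.93, 0.93 and 0.92 over 12 libraries. They were picked for the highest r of all tested genes outside the 10, and no p was computed. Gm10699 and Mir3091 averaged at most 5.47 CPM in either group. Minos1 and 1110032F04Rik were themselves called as lower (log2 change -0.44 and -2.84, edgeR adjusted p = 0.0293 and 0.0305).

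**Figure D4:**
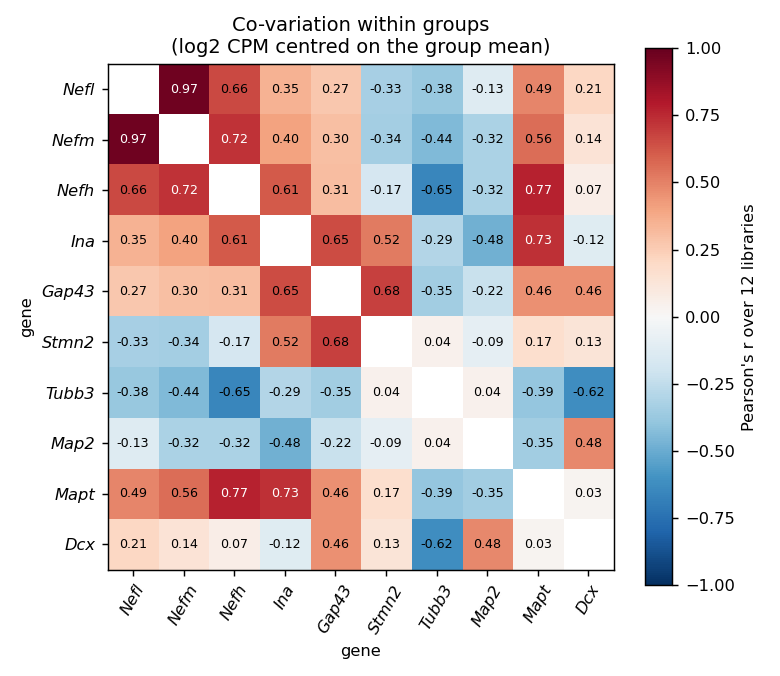
Pearson's r between pairs of the 10 genes over 12 libraries, computed on log2 CPM centred on the group mean (both axes list the genes; red is positive and blue negative). Nefl with Nefm is the darkest cell, at 0.97, and Tubb3 has negative values with Nefh (-0.65) and Dcx (-0.62).

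Related genes were read from 6 lists with 115 genes in all, of which 110 were tested and 17 were called, 8 lower and 9 higher. This is 15.5% of those tested, against 10.2% of all genes. With scaling on the pan-neuronal genes 20 were called, 6 lower and 14 higher, beside 1453 of all 14813 genes tested. That scaling also moved the median log2 fold change of all genes to 0.09. Without Isl1CKO 2, 3 and 5 the count was 9, beside 767 of all 16222 genes tested there. In DESeq2's Wald test it was 26, beside 2100 of all 14813 genes. In the main fit the median log2 fold change over the 110 genes was 0.01.

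Of the listed tubulin genes, which leave out Tubb3 described above, 0 of 12 tested were called in edgeR, against 10.2% of all genes tested. Their log2 fold changes ran from -0.12 to 1.17 with a median of 0.07. Tuba1a, the main alpha-tubulin of neurons, averaged 5412 CPM in the controls and 5889 CPM in the libraries labelled Isl1CKO, with a log2 change of 0.12 (edgeR adjusted p = 0.142). Tuba1a was the one tubulin of this list with an unadjusted p under 0.05 in edgeR, and DESeq2's Wald test called 0 of the list. Tubb3, outside the list, had an unadjusted edgeR p of 0.0149. In limma-voom Tuba1a was called, with a log2 change of 0.14 (adjusted p = 0.0203).

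Among 7 other intermediate filament genes tested, 1 fell and 1 rose, or 28.6% called, against 10.2% of all genes tested. Vim, which encodes vimentin, the filament protein of precursors and non-neuronal cells, went from 699 ± 176 to 393 ± 42.3 CPM (SD, n = 6) without overlap, a log2 change of -0.83 (edgeR adjusted p = 8.51e-04). Schwann cell and mesenchyme markers, whose cells also make vimentin, had the summed levels given above, and their part was not tested. Lmna, which encodes nuclear lamins, averaged 18.1 ± 1.81 CPM in controls and 32.3 ± 10.7 CPM in the other group (SD, n = 6), a log2 change of 0.83 (edgeR adjusted p = 0.0157), and was not called without Isl1CKO 2, 3 and 5 (adjusted p = 0.0566). Prph, a marker of type II spiral ganglion neurons named here after its values were seen, was highly uneven. It reached 224 CPM in control 3 and 10.5 to 27.9 CPM in the other controls. Among the libraries labelled Isl1CKO it was at 165 CPM in replicate 1, 29.1 CPM in replicate 3 and 0.381 to 1.90 CPM in the other 4, and it was not past the threshold (log2 change -0.66, edgeR adjusted p = 0.825). The value was -2.98 without Isl1CKO 1, 0.89 without control 3 and 0.09 without Isl1CKO 2, 3 and 5.

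Microtubule-associated proteins included 3 called genes of 31 tested, or 9.68%, against 10.2% of all genes tested. Map9, which encodes a protein of spindle and ciliary microtubules, rose from 42.3 ± 4.86 to 84.1 ± 23.2 CPM (SD, n = 6) without overlap, a log2 change of 0.99 (edgeR adjusted p = 7.22e-04). Stmn4, a relative of Stmn2, had a log2 change of 0.31 (edgeR adjusted p = 0.0255). The Stmn4 call was lost without Isl1CKO 4 or without any one of controls 1, 4, 5 and 6 (edgeR adjusted p of 0.0504, 0.0657, 0.0564, 0.0659 and 0.0521), and without Isl1CKO 2, 3 and 5 (0.214). Tppp3 had a log2 change of -0.60 close to the threshold (edgeR adjusted p = 0.0462). Its call was lost without any one of Isl1CKO 1, 2, 5 and 6 and controls 2, 3 and 6 (edgeR adjusted p 0.0539, 0.0965, 0.0905, 0.0886, 0.0724, 0.101 and 0.105). The Tppp3 call was also lost without Isl1CKO 2, 3 and 5 together (edgeR adjusted p = 0.221), with no filter on low counts (0.0607) and in limma-voom (0.053).

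Growth cone proteins held 6 called genes of 29 tested, or 20.7%, against 10.2% of all genes tested. Of the called genes 2 were lower and 4 higher, and the list median was 0. Nrn1, which encodes neuritin, a membrane-anchored protein that promotes neurite growth, rose from 39.3 ± 6.38 to 143 ± 30.1 CPM (SD, n = 6), a log2 change of 1.87 (SE 0.15; edgeR adjusted p = 1.54e-06). Gprin3 had 0 to 4 counts in each control library, at most 0.317 CPM, and 1.03 to 14.7 CPM in the libraries labelled Isl1CKO, with no overlap (edgeR adjusted p = 1.14e-04). Shtn1, which encodes shootin-1, a protein that links actin flow to adhesion in growth cones, fell from 105 ± 20.9 to 61.3 ± 14.4 CPM (SD, n = 6), a log2 change of -0.77 (edgeR adjusted p = 0.0068), and was not called without Isl1CKO 2, 3 and 5 (adjusted p = 0.115). The other called genes of this list were Cotl1, Crmp1 and Enah. Cotl1, with a log2 change of 0.73 (edgeR adjusted p = 0.016), was called in all 21 alternatives. Crmp1 had a log2 change of 0.31 (edgeR adjusted p = 0.0412), and its call was lost without Isl1CKO 2, 3 and 5 (0.132) and without any one of Isl1CKO 2, 4, 5 and 6 and controls 1, 3, 4, 5 and 6 (0.0526 to 0.095). Enah had a log2 change of -0.34 (edgeR adjusted p = 0.0358). Its call was lost without Isl1CKO 2, 3 and 5 (0.179), without any one of Isl1CKO 1, 4, 5 and 6 and controls 2, 3, 4 and 5 (0.0507 to 0.0843), and with scaling on the pan-neuronal genes (0.174).

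Of 20 axonal motor genes 2 were called, or 10%, against 10.2% of all genes tested. Both were lower, and the list median was 0.03. Kif21b, a kinesin of neurons, averaged 33.4 ± 14.3 CPM in controls and 8.97 ± 6.14 CPM in the other group (SD, n = 6), a log2 change of -1.90 (edgeR adjusted p = 0.0102), and was not called without Isl1CKO 2, 3 and 5 (adjusted p = 0.0656). Dctn1, which encodes the large dynactin subunit, averaged 215 ± 33.8 CPM in controls and 137 ± 37.0 CPM in the other group (SD, n = 6), a log2 change of -0.65 (edgeR adjusted p = 0.0336). The Dctn1 call was lost without any one of Isl1CKO 4 and 6 and controls 2, 4 and 5 (edgeR adjusted p of 0.0552, 0.067, 0.0542, 0.0681 and 0.0643), and with scaling on the pan-neuronal genes (0.127).

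The ankyrin and spectrin genes encode the scaffold under the axon membrane. They had 4 called genes of 11 tested, or 36.4%, against 10.2% of all genes tested. The groups did not overlap for any of the 4, as for 6.78% of all genes tested. Ank2, whose ankyrin-B lies along the axon shaft, rose from 562 ± 67.6 to 866 ± 85.2 CPM (SD, n = 6), a log2 change of 0.62 (edgeR adjusted p = 2.86e-04). Ank3, whose ankyrin-G organizes the axon initial segment and the nodes, fell from 297 ± 67.6 to 170 ± 11.3 CPM (SD, n = 6), a log2 change of -0.80 (edgeR adjusted p = 4.85e-04). Sptb, a beta-spectrin gene, fell from 11.1 ± 5.80 to 2.33 ± 1.32 CPM (SD, n = 6), a log2 change of -2.25 (edgeR adjusted p = 0.00512). Ank1, the gene of the erythrocyte-type ankyrin, had a log2 change of 1.78 (edgeR adjusted p = 0.0341). The Ank1 call was lost without Isl1CKO 2, 3 and 5, with a log2 change of 1.27 (edgeR adjusted p = 0.360), and without any one of Isl1CKO 2, 3, 4 and 5 and controls 1, 2 and 5 (0.0592 to 0.083). The erythroid markers Hbb-y and Alas2 together summed to 1.01 to 5.87 CPM against 1.41 to 4.81 CPM in controls.

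**Figure D5:**
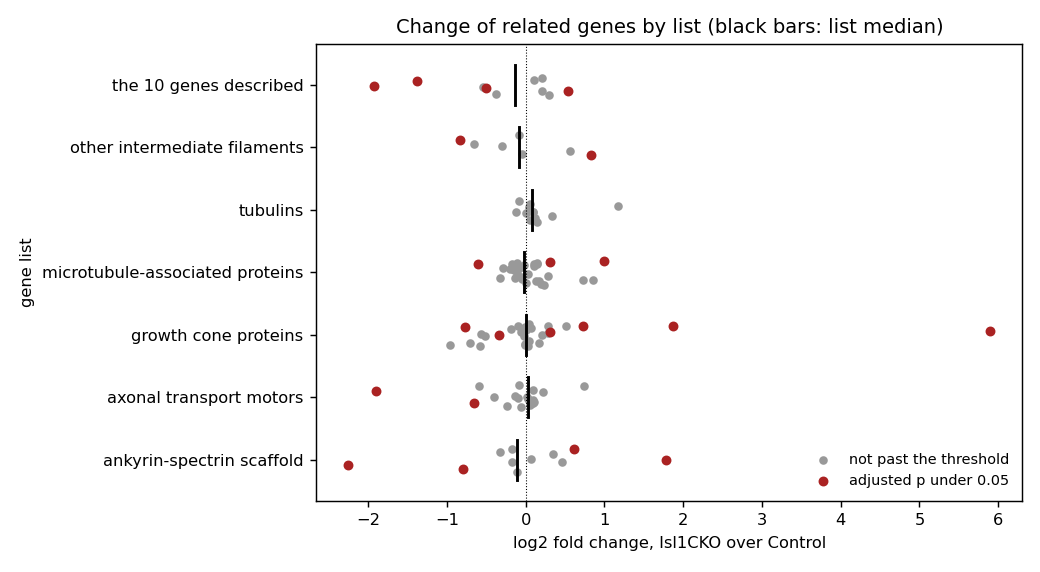
Log2 fold change, libraries labelled Isl1CKO over controls (horizontal axis), of the 10 genes described and of the tested genes of 6 related lists (vertical axis); red points have an edgeR adjusted p under 0.05 and black bars are list medians. The tubulins hold no red point, and the red points of the ankyrin and spectrin list lie on both sides of 0, from -2.25 to 1.78.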

How the data were processed

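Whole-gene read counts of 12 libraries were used as the authors deposited them. Per the submitters' processing notes, cutadapt 1.18, Bowtie 1.2.2, STAR 2.7.0c and featureCounts were used with GRCm38.p6; annotation release and strand setting are not given in the sources used here. Genes with a total under 10 counts are not in the table.

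Counts were filtered with filterByExpr (minimum count 10), scaled by TMM and tested with edgeR 4.0.16 (robust quasi-likelihood, R 4.3.3), 6 against 6, with Benjamini-Hochberg adjustment over all 14813 genes. The standard error (SE) of each edgeR change was derived as the absolute log2 fold change divided by the square root of the quasi-likelihood F statistic. The procedure was tested on simulated data. Ratios were log2 of counts plus 0.5 in both genes, with exact permutation tests adjusted over 6 ratios. Alternatives used DESeq2 1.42.0, limma 3.58.1, other scalings and filters, a replicate block and left-out libraries. Gene positions, exon lengths and coding sequences came from GENCODE M21 on GRCm38.

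The 10 genes and the related and marker lists were chosen with earlier results of these data known. The rule named all 10 genes, the called genes of each related list with the smallest p (at most 3), and the 5 genes most correlated with the mean of the 10. Stmn1, Tuba1a, Crmp1, Cotl1, Enah, Ank1, the single genes named from the marker lists, Prph and the genes beside Nefl fall outside it and were named after their values were seen. No 2 libraries agree within sampling noise (chi-square per degree of freedom 20.9 to 97.2 over 66 pairs). Amplified reads without molecular identifiers are not independent molecules.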

Additional observations from a re-analysis of the deposited data

Results flagged for a closer look

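Of 32 sets of 6 values checked for one library far from the rest, 2 stood out, where chance gives about 1.6. Ina reached 919 CPM in control 3, against 485 to 645 CPM in the other controls, and its gap to the next library was 0.632 of the whole range. The log2 ratio of Dcx to Tubb3 was -1.23 in Isl1CKO 3, against -2.32 to -2.0 in the other libraries labelled Isl1CKO, with a gap of 0.705 of the range. Isl1CKO 3 is one of the 3 libraries with both Xist and Y-linked transcripts, and the part of this in the value was not tested.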

How the results depend on the processing

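Over 21 alternatives, 4 or 5 of the 10 genes were called, and none of the 10 changed direction, nor did the 6 ratios over their 15 alternatives. Prph, which was not called, ranged from a log2 change of -2.98 (without Isl1CKO 1) to 0.89 (without control 3) with 1 library left out, and was 0.09 without Isl1CKO 2, 3 and 5. Nefl, Nefm and Stmn2 were called in all 21. The count of related genes called was 26 in DESeq2's Wald test, 9 without Isl1CKO 2, 3 and 5, and 13 to 19 with 1 library left out, against 17. Of these 17, 8 were lower and 9 higher, and with upper quartile scaling 9 were lower and 8 higher. Without Isl1CKO 2, 3 and 5 the difference in log2 Nefh/Nefl was 0.63 and that in log2 Mapt/Map2 was -0.67, neither past the threshold with 3 against 6 libraries. With 1 library left out, log2 Nefh/Nefl ranged from 0.68 to 1. Over all genes, 767 were called without these 3 libraries and 2100 in DESeq2's Wald test, against 1511. Scaling on the pan-neuronal genes moved the median of all genes to 0.09.

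Samples were not paired by replicate number in the main fit. Same-numbered libraries correlated at -0.056 to 0.152, and 2 of 6 libraries labelled Isl1CKO correlated best with their own number. No chance level was computed for these values, so they do not decide whether the numbers pair the samples. With the replicate block, 5 of the 10 genes were called, Ina being added at a log2 change of -0.35 (edgeR adjusted p = 0.0395), and 1450 genes in all. Tppp3 and Ank1 lost their calls with the block (edgeR adjusted p of 0.0905 and 0.0517), and Ank1 also with no filter on low counts (0.0554), as did Crmp1 (0.0672). Stmn4 lost its call with upper quartile scaling (0.0524). At these depths every one of the 10 genes held at least 56 counts in each library.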
